A study of Mus musculus with 9 samples.

Results

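The last day of differentiation without doxycycline was followed in mouse embryonic stem (ES) cells by setting the array of day 3.5 (D3.5) against that of day 2.5 (D2.5). Both arrays were chosen by their labels, as the 2 arrays of 9 that hold cells in medium without doxycycline (Dox-) at 2.5 and 3.5 days. The other 7 arrays, undifferentiated ES cells, Dox- cells at 0.5 and 1.5 days and cells with doxycycline at 1 µg/ml (Dox+) at 0.5, 1.5, 2.5 and 3.5 days, served as values side by side. Undifferentiated cells had been kept with leukemia inhibitory factor (LIF), serum replacement and doxycycline, and differentiation took place in medium with serum and no LIF. All groups come from ES cells in which doxycycline controls a constitutively active PKA, protein kinase A, which normally responds to cyclic AMP. The design text says that doxycycline induces the kinase, while the ES cells themselves were grown with the drug, so the arms are named here by their medium. The sources used here do not name the cell line, the number of clones or the promoter of the transgene.

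Each day and medium is 1 array without a replicate, so differences have no replicate check and no p-value is given. Values are array signals, with each array scaled to a mean of 100. A difference is D3.5 minus D2.5 of log2(signal + 16), and the added 16 makes the change of a dim gene look smaller than it was. A gene counts as 2-fold higher or lower where that difference reaches 1 or -1. Of 18193 genes with a probe set, 8716 passed a filter, a signal of 50 or more on 2 or more of the 9 arrays, and counts refer to these unless dim genes are named. The share of genes with a signal of at least 50 was 43.2% on the D2.5 array and 44.2% on the D3.5 array, against 41.6% to 43.4% on the other 7. As a sign of RNA integrity, 3' over 5' signal was 1.93 for Actb on D2.5 against 1.63 on D3.5, and for Gapdh it was 1.07 and 1.10. The part of this difference in the results was not tested.

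In the mouse embryo, epiblast cells pass through the primitive streak, a transient zone where Nodal, Wnt and FGF signals switch on T-box and homeobox genes, and leave it as mesoderm or endoderm. Cells that leave the posterior streak meet BMP signals and form lateral plate and extraembryonic mesoderm, in which Hand, Foxf1, Isl1 and Tbx20 are expressed. As this happens, the pluripotency network of the epiblast is switched off and the Hox clusters are opened in order along the chromosome.

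The 4 marker genes of this day stand for these events, and their promoters are shown to place them. Tbx20 and Isl1 encode transcription factors of heart-forming and lateral mesoderm, Lhx1 a LIM homeodomain factor of the streak and of nascent mesendoderm, and Pou5f1 the pluripotency factor Oct4. Each window runs from 250 bases before to 50 bases after the RefSeq gene start on GRCm38.p6, is written 5′ to 3′ along the gene, and has its CpG dinucleotides in capitals. The windows are chr9:24774254-24774553 on the minus strand for Tbx20, chr13:116309639-116309938 on the minus strand for Isl1, chr11:84525485-84525784 on the minus strand for Lhx1, and chr17:35505782-35506081 on the plus strand for Pou5f1, which has 2 windows of which the first is shown.
Tbx20: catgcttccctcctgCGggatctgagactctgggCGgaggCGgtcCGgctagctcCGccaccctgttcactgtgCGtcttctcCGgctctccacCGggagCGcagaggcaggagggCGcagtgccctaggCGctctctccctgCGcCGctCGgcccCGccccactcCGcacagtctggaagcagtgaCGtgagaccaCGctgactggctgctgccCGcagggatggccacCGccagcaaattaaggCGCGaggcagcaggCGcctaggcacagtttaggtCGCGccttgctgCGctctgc
Isl1: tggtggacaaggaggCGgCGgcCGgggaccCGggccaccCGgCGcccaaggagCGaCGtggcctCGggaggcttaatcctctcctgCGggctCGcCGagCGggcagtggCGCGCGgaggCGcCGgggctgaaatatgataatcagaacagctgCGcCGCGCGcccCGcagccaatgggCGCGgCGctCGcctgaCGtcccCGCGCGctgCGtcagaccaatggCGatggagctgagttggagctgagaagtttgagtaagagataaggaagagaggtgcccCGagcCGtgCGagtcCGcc
Lhx1: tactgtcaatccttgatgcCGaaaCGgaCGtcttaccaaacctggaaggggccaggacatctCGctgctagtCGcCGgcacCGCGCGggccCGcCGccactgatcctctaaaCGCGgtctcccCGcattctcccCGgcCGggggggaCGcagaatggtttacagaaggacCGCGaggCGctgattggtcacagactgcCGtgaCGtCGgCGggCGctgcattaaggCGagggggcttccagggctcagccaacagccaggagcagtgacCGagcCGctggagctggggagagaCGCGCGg
Pou5f1: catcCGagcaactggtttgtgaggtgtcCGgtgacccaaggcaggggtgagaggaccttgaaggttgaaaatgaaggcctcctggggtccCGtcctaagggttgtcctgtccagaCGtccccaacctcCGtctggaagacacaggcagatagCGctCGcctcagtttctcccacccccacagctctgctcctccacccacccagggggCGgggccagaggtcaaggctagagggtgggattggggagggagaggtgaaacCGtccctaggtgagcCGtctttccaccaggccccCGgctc
The Isl1 window holds 37 CpG dinucleotides, that of Lhx1 31, that of Tbx20 26 and that of Pou5f1 11. Genes kept by the filter had a median of 22 over the 7170 with a window in the table, the 2-fold higher genes 21 over 200, and the 2-fold lower genes 17 over 148. The letters AGATAA, which GATA factors bind, were searched on both strands and occurred in the Isl1 window and in none of the other 3. They occurred in 5.3% of windows of kept genes, in 5.5% of those of higher genes and in 4.73% of those of lower genes. The TCF motif CTTTGA and the T-box motif TCACAC, searched in the same way, were absent from all 4 windows. They were present in 9.5% and 10.0% of windows of higher genes and in 13.5% and 15.5% of those of lower genes, against 11.3% and 9.97% for kept genes. The search says only which letters stand in these windows.

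Tbx20 had signals of 0.1, 10.4, 52.3 and 855.1 along the Dox- course from D0.5 to D3.5. Its signal was 4.6 in undifferentiated cells and between 0.7 and 8.2 on the Dox+ arrays, so D3.5 stood far above all other arrays, with a step of 3.67. Isl1 followed the same course, from 7.7 and 12.6 on the first 2 days to 80.7 on D2.5 and 505.6 on D3.5, a step of 2.43, and was at most 13.1 elsewhere. Lhx1 moved the other way. Its Dox- signals were 1.2, 52.0, 1082.9 and 214.9, so it peaked on D2.5 and was lower by the last day, with a step of -2.25. On the Dox+ arrays Lhx1 was at most 3.8 until D2.5 and reached 190.1 on D3.5. Pou5f1 was bright on every earlier Dox- array, with 2614.2, 2095.3 and 1735.0, and stood at 524.0 on D3.5, a step of -1.70. It was 2262.7 in undifferentiated cells and between 2043.1 and 2724.4 on the Dox+ arrays, so D3.5 Dox- was the single low array. Tbx20 and Isl1 were thus higher and Lhx1 and Pou5f1 lower on the last day.

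**Figure D1:**
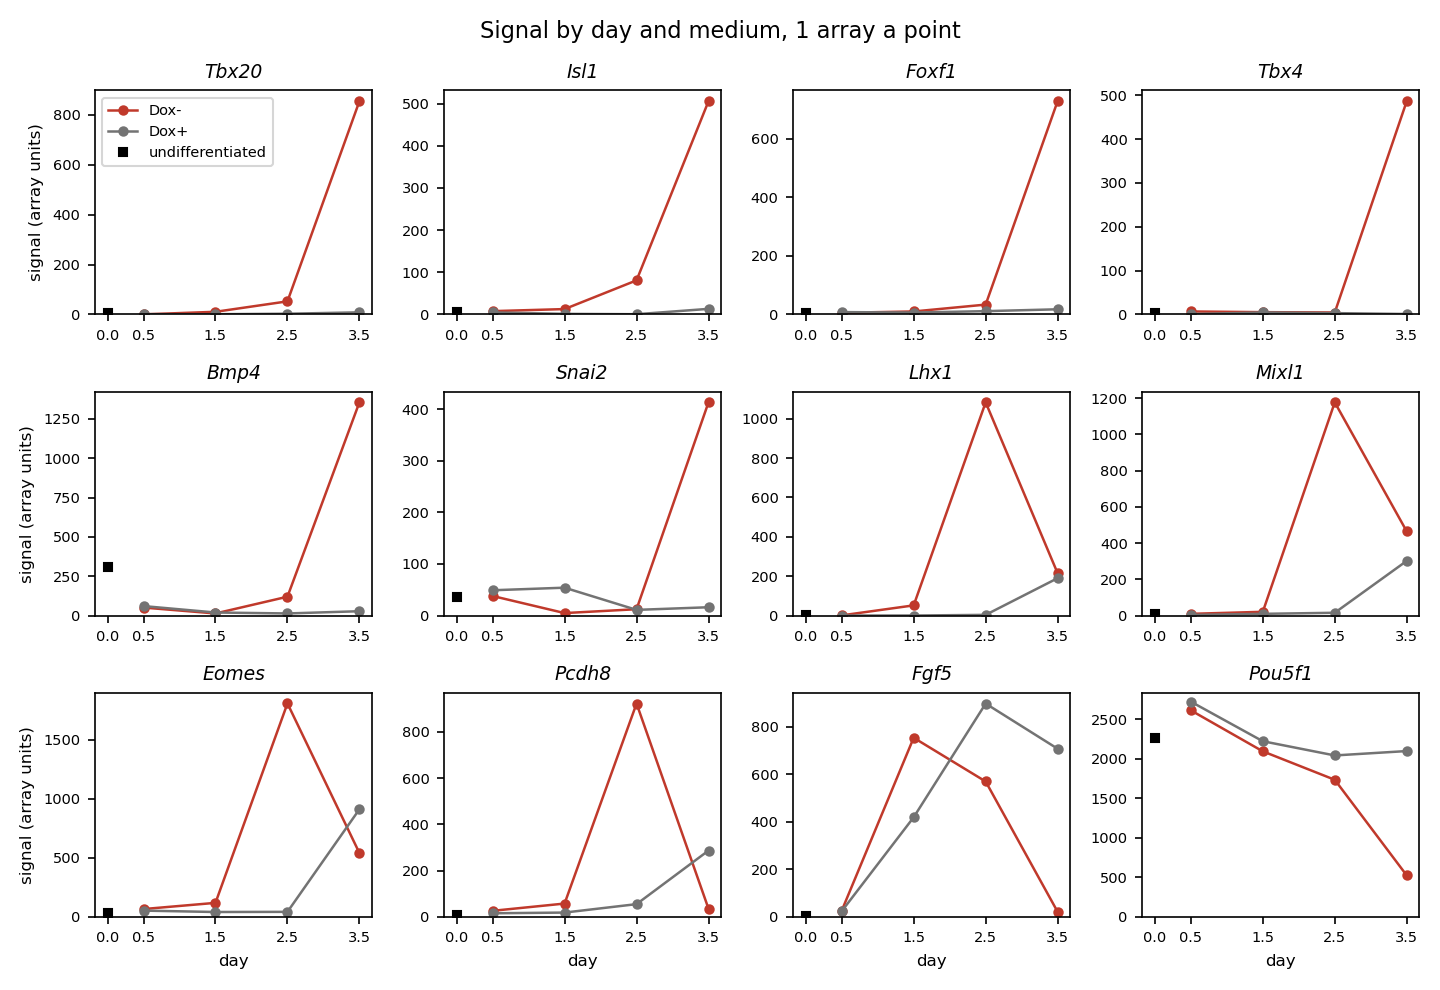
Signal (array units, linear axis from 0, each panel on its own scale) by day for 12 genes, with 1 array a point, red for Dox-, grey for Dox+ and a black square at 0 for undifferentiated cells. The first 6 panels show genes that are highest on D3.5 Dox-, of which Bmp4 also had 311.6 in undifferentiated cells. Lhx1, Mixl1, Eomes and Pcdh8 show a peak on D2.5 Dox- with a lower D3.5.

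Between the 2 days, 252 genes were at least 2-fold higher (2.89% of those kept) and 191 at least 2-fold lower (2.19%), while the median difference of all kept genes was 0.004. In RNA from a whole culture, fewer cells of a type and less RNA per cell cannot be told apart. The preceding Dox- step, D1.5 to D2.5, which shares the D2.5 array, had 245 higher (2.81%) and 217 lower genes (2.49%), and D0.5 to D1.5 had 533 (6.12%) and 355 (4.07%). The same day in Dox+, which shares no array, had 115 (1.32%) and 67 (0.769%). The arrays of D0.5 in both media had 8 genes (0.0918%) 2-fold higher and 2 (0.0229%) 2-fold lower in Dox-. At the threshold, Pcolce (1.000) and Wipi1 (1.007) were just inside and Vegfa (0.994) and Sh3bgrl3 (0.999) just outside on the higher side. On the lower side Cxcl12 and Fbxo15 (both -1.008) were just inside and Ago1 (-0.998) and D830012I24Rik (-0.996) just outside. Where a called gene had another probe set bright enough to pass the filter, the others had the same sign for 75 of 76 higher and 60 of 65 lower genes, and none was opposite by 0.5 or more. All of the others reached 2-fold themselves for only 48 of the 76 higher and 31 of the 65 lower genes.

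The higher genes were mostly at their peak. For 207 of the 252 (82.1%), D3.5 Dox- was the highest of the 9 arrays, against 22.2% of all kept genes, a share that the choice of these genes raises by itself. Of the 252, 52 (20.6%) had also been 2-fold higher on D2.5 than on D1.5, against 2.81% of all kept genes, and 10 (3.97%) had been 2-fold lower, against 2.49%. On D2.5, 36 (14.3%) had been 2-fold below undifferentiated cells, against 7.38% of all kept genes. The lower genes had more mixed histories. On D2.5, 86 of the 191 (45.0%) stood at least 2-fold above undifferentiated cells, 72 (37.7%) lay within 2-fold and 33 (17.3%) were already 2-fold below. The same shares of all kept genes were 10.4%, 82.2% and 7.38%. All of these counts read the D2.5 array that also chose the genes. For 109 of them (57.1%) D3.5 Dox- was the lowest of the 9 arrays, against 21.2% of all kept genes, a share that the choice of lower genes also raises. A further 232 genes, which the filter leaves out, reached a signal of 50 on D3.5 Dox- and on no other array, against 49 on D2.5 Dox- and 19 to 109 on each of the other arrays. Of these 232, 114 were 2-fold higher than on D2.5 and 50 had a signal of at least 100. Among all 18193 genes 2.37% were 2-fold higher, and the choice of the 232 builds in a rise from D2.5.

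**Figure D2:**
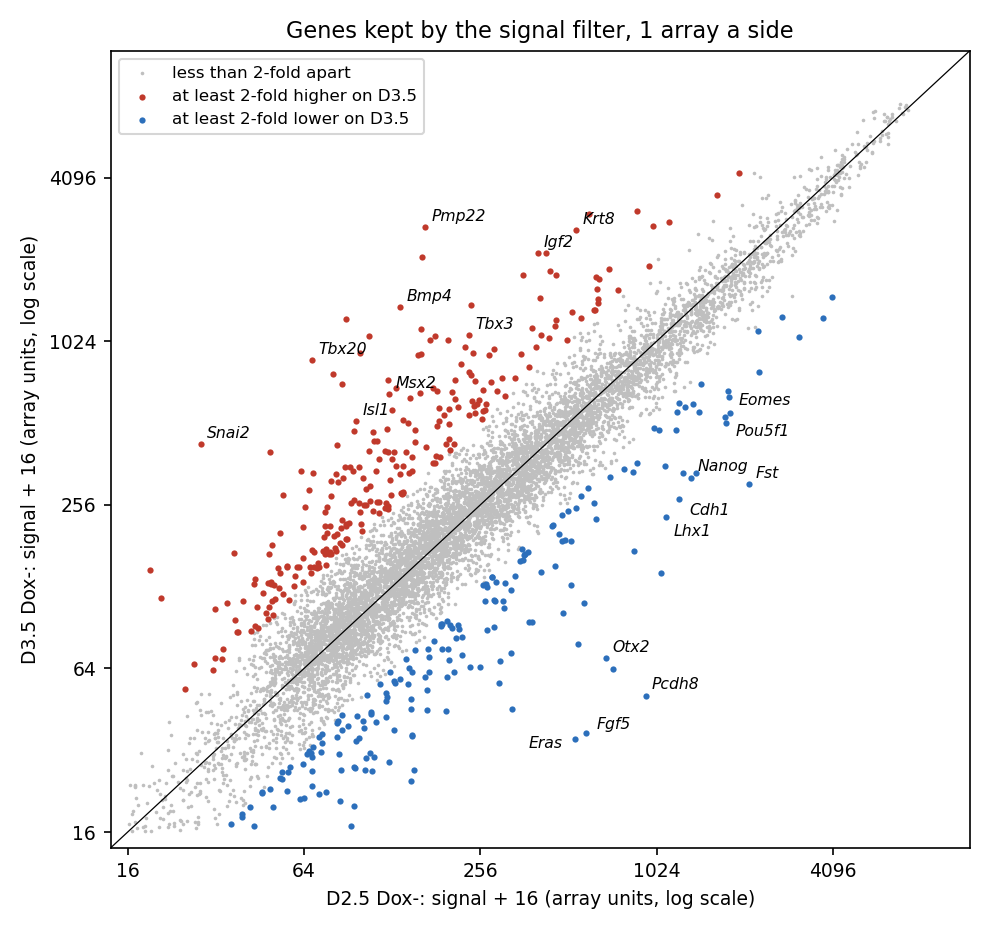
Signal + 16 on the D2.5 Dox- array (x) against the D3.5 Dox- array (y), both on log axes in array units, for the 8716 kept genes. Red points are the 252 genes at least 2-fold higher on D3.5, blue points the 191 at least 2-fold lower, and the line marks equal signals.

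Of the primitive streak and nascent mesoderm genes, 10 of the 22 kept members were 2-fold lower and 3 were 2-fold higher, with a median of -0.94. With the 9 dim members included, 12 of 31 were lower, 4 higher, and the median was -0.61. T (brachyury) was not analysed here. Eomes, a T-box factor that specifies cardiac mesoderm and definitive endoderm, had Dox- signals of 65.9, 118.4, 1807.8 and 540.3, a step of -1.71. Its last value was thus below that of D2.5 but above every earlier Dox- array. Mixl1, a homeobox factor of the streak, went from 1177.3 to 464.8 (-1.31). Mesp1, the bHLH factor that marks the first cardiac progenitors, went from 1432.4 to 695.6 (-1.03), just past the 2-fold threshold. Before D2.5 neither gene exceeded 21.0 on a Dox- array. Some Wnt genes of the streak were lower too. Sp5, a zinc finger factor that is a direct Wnt target, went from 504.5 to 113.7 (-2.0), and Wnt8a from 68.8 to 4.8 (-2.03), close to 0. Fgf8, the ligand that cells need to move away from the streak, went from 480.6 to 174.2 (-1.38).

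The streak genes did not all go down together. Evx1, a homeobox gene of the posterior streak, had 333.7 and 305.7 (-0.12), and Cyp26a1, which breaks down retinoic acid in the streak and tail bud, had 1528.2 and 1147.8 (-0.41). Nodal, the ligand that starts streak formation, lay just short of the threshold with 701.2 and 356.5 (-0.95). The kept members that were 2-fold higher were Bmp4, Cdx2 and Nkx1-2, the last named after its value was seen (1.75). Pdgfra, the growth factor receptor of nascent mesoderm, stayed close to its level with 728.6 and 660.7 (-0.14), and Kdr, the VEGF receptor of vascular and heart precursors, had 273.6 and 483.0 (0.78).

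Lateral plate and heart mesoderm genes were the list with the highest median among kept members. Of 13 kept, 8 were 2-fold higher and 1 lower, with a median of 2.20. Ahnak (3.33), a scaffold protein gene, is a member of this list and counts among the 8. Over all 39 members with a probe set the median was 0.77, with 18 higher and 1 lower, since many are dim. Bmp4, a ligand that posterior and lateral mesoderm both make and respond to, had 51.1, 13.6, 120.1 and 1354.8 on the Dox- arrays (3.33). Its signal in undifferentiated cells was 311.6 and on the Dox+ arrays at most 60.5, so the D3.5 level is the highest of the series after a low on D1.5. Msx1 and Msx2, homeobox targets of BMP, went from 116.0 to 670.7 (2.38) and from 109.3 to 639.7 (2.39). Tbx3, a T-box factor of the posterior heart field that is also active in naive ES cells, went from 217.8 to 1061.2 (2.20). In undifferentiated cells Tbx3 had 811.5 and on D1.5 Dox- 10.2, so its high D3.5 signal followed a low. Tdgf1, the Nodal co-receptor, was the list's lower member, from 3773.2 to 1226.7 (-1.61).

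Several regulators of this lineage were seen on the D3.5 Dox- array alone and so did not pass the filter. Foxf1, a forkhead factor of lateral and extraembryonic mesoderm, went from 33.4 to 728.3 (3.91), with at most 17.4 on the other 7 arrays. Hand2, a bHLH factor of heart and lateral mesoderm, went from 42.7 to 475.6 (3.07), and its relative Hand1 from 12.9 to 97.4 (1.97). Tbx4, which marks hindlimb mesoderm and the allantois, had 4.3 and 486.8. Its step of 4.63 was the largest of any gene named here, and no other array exceeded 6.7. Tbx2, which patterns the heart's outflow and atrioventricular regions, went from 0.5 to 97.1 (2.78). These genes thus reached a signal of 50 only on the last Dox- day. Foxf1 and Hand2 were already higher on D2.5 Dox- than on the other 7 arrays. Other heart regulators, named after their values were seen, stayed below 50 on both days. Nkx2-5 had 12.3 and 21.8, Tbx5 5.1 and 1.9, Gata4 17.4 and 30.4, and Mef2c 24.0 and 10.8.

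The T-box family thus held genes that moved in opposite directions. Of its 15 members with a probe set, Tbx4, Tbx20, Tbx2 and Tbx3 were at least 2-fold higher and Eomes 2-fold lower. The median of its 4 kept members was 0.92, but -0.02 over all 15, where dim genes near 0 dominate. Of 12 LIM homeodomain genes, Isl1 was 2-fold higher, Lhx1 2-fold lower, and the other 10 were too dim for the filter. No GATA factor moved 2-fold. Gata6, a factor of endoderm and heart mesoderm, had 280.4 and 335.0 (0.24), Gata2, of blood and extraembryonic tissue, 54.3 and 86.6 (0.55), and Gata3 29.8 and 63.3 (0.79).

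Hox genes, which give cells their position along the body axis, were absent from the kept genes because none reached a signal of 50 on 2 arrays. On D2.5 Dox- 0 of 33 members with a probe set reached 50, on D3.5 Dox- 14 did, and on D3.5 Dox+ 0 did. Over all 33, 18 were 2-fold higher and none lower, with a median of 1.08, against 2.37% higher and 1.26% lower among all 18193 genes. Hoxa9 went from 23.1 to 422.1 (3.49), Hoxb2 47.7 and 315.1 (2.38), and Hoxd9 7.5 and 307.4 (3.78). Genes of all 4 clusters were among the 14. Of the Hoxd cluster, Hoxd1 had 12.5 and 300.2 (3.47) and Hoxd10 0.9 and 74.5 (2.42). Hoxc8 had 4.7 and 222.3 (3.53), Hoxd8 9.9 and 163.3 (2.79), Hoxb3 11.6 and 120.8 (2.31) and Hoxb6 7.3 and 114.5 (2.49). The remaining 5 lay between 50.1 (Hoxb5) and 85.0 (Hoxa10) on D3.5, with Hoxb1 at 65.2, Hoxc9 at 58.4 and Hoxa5 at 54.3. Hoxb1 and Hoxa5 had started at 32.2 and 34.7 and did not reach 2-fold (0.75 and 0.47).

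**Figure D3:**
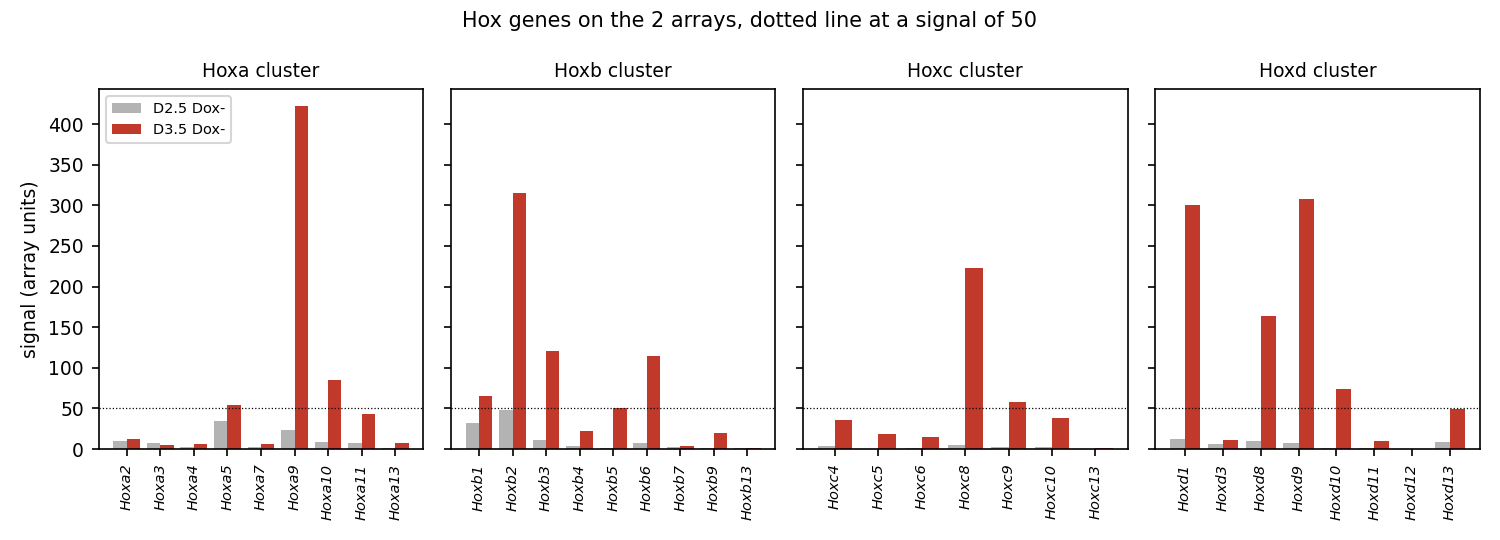
Signal (array units, bars from 0) of the 33 Hox genes with a probe set on the D2.5 Dox- array (grey) and the D3.5 Dox- array (red), 1 panel per cluster in order of paralog number, with a dotted line at 50. No grey bar reaches the line, and 14 red bars do, the tallest being Hoxa9 at 422.1.

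The Cdx genes, homeobox factors that act upstream of Hox genes in the posterior embryo, did not all follow 1 course. Cdx2 had 5.1, 13.1, 225.2 and 914.7 on the Dox- arrays (1.95), and Cdx4 was at most 10.3 before it reached 167.2 on D3.5 (2.96). Cdx1, named after its value was seen, was dim on both days with 12.5 and 1.4 (-0.71). Of the Hox cofactors, Meis2 went from 344.7 to 152.0 (-1.10) and Pbx3 from 809.8 to 564.3 (-0.51), while Pbx2 had 194.7 and 259.8 (0.39). Hox genes and cofactors therefore did not move as 1 group. Wnt5a, a non-canonical Wnt ligand needed for posterior outgrowth, went from 368.4 to 1131.7 (1.58).

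Genes of other mesoderm derivatives did not rise as the lateral plate list did. Among paraxial mesoderm and segmentation genes, 3 of 13 kept members were 2-fold lower and 1 was higher, with a median of -0.47. Over all 31 with a probe set the median was -0.18, with 5 lower and 2 higher. Pcdh8, a protocadherin of presomitic mesoderm, showed the largest negative step of all kept genes. Its Dox- signals were 26.0, 57.4, 922.3 and 34.8 (-4.21), so its peak lasted for a single array. Dll1, the Notch ligand of presomitic mesoderm, had Dox- signals of 85.4, 38.7, 312.9 and 29.3 (-2.86). Dll3, another Notch ligand, went from 185.2 to 76.7 (-1.12), and Mesp2, a segmentation factor, from 128.9 to 28.2 (-1.71), while Hey1, a Notch target, went from 96.4 to 325.6 (1.60). Like many streak genes, the lower genes named here peaked on D2.5 Dox-. Tbx6 (40.2 and 23.0) and Msgn1 (25.9 and 21.0), paraxial genes named after their values were seen, reached 50 on no array. The intermediate mesoderm list had 5 kept members, of which only Lhx1 was 2-fold lower, with a median of -0.68, but 0 over all 13 with a probe set.

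Of 24 kept genes of vascular and blood precursors, 3 were 2-fold higher and 4 lower, with a median of -0.12. Smad6 (2.82) and Nrp1 (2.57), both widely expressed in mesoderm, were among the higher ones. Ctla2a (282.3 to 51.9, -2.14), Myb (91.4 to 15.2, -1.78) and Sox18 (52.2 to 7.6, -1.53), an endothelial factor, were lower. Myb was also bright at 165.7 to 524.2 on the Dox+ arrays, where Sox18 had at most 3.7, so Myb does not follow these precursors alone. The summed signal of 7 defining vascular and blood markers went from 263.6 to 157.1, most of it from the embryonic globin Hbb-bh1 (155.6 and 54.3). Runx1, a factor of blood formation, was higher with 27.6 and 127.0 (1.71), and Etv2, named after its value was seen, had 182.9 and 290.0 (0.62).

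In the definitive endoderm list, 4 of 9 kept members were 2-fold lower and 2 higher, with a median of -0.54, but with dim genes included the median was 0.05, with 5 of 23 in each direction. Otx2, a factor of anterior epiblast and endoderm, went from 671.3 to 53.8 (-3.30), and Trh, a hormone precursor gene that is a marker of early endoderm, from 220.4 to 48.6 (-1.87). Krt19, a simple keratin, went from 97.9 to 424.5 (1.95), and Shh, the hedgehog ligand of gut and axial tissue, from 4.3 to 110.9 (2.64). Sox17 had 90 and 85.2, Foxa2 had 79.7 and 11.5, and Cxcr4 76.6 and 243.6 (1.49). On D1.5 Dox- Sox17 already had 100.2, while Foxa2 had 15.2, so Sox17 alone does not mark this lineage here. The summed signal of Sox17, Foxa2, Cxcr4, Trh and Cer1, the marker set fixed for this lineage, was 495.3 and 399.7. Among them Trh had the largest fall and Cxcr4 the largest rise. Trh was also bright in undifferentiated cells (297.6) and on D2.5 Dox+ (363.9), so the sum does not follow endoderm alone. Of the extraembryonic endoderm genes, 14 of 16 kept members changed by less than 2-fold, and the summed signal of 6 defining markers was 120.8 and 131.9.

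**Figure D4:**
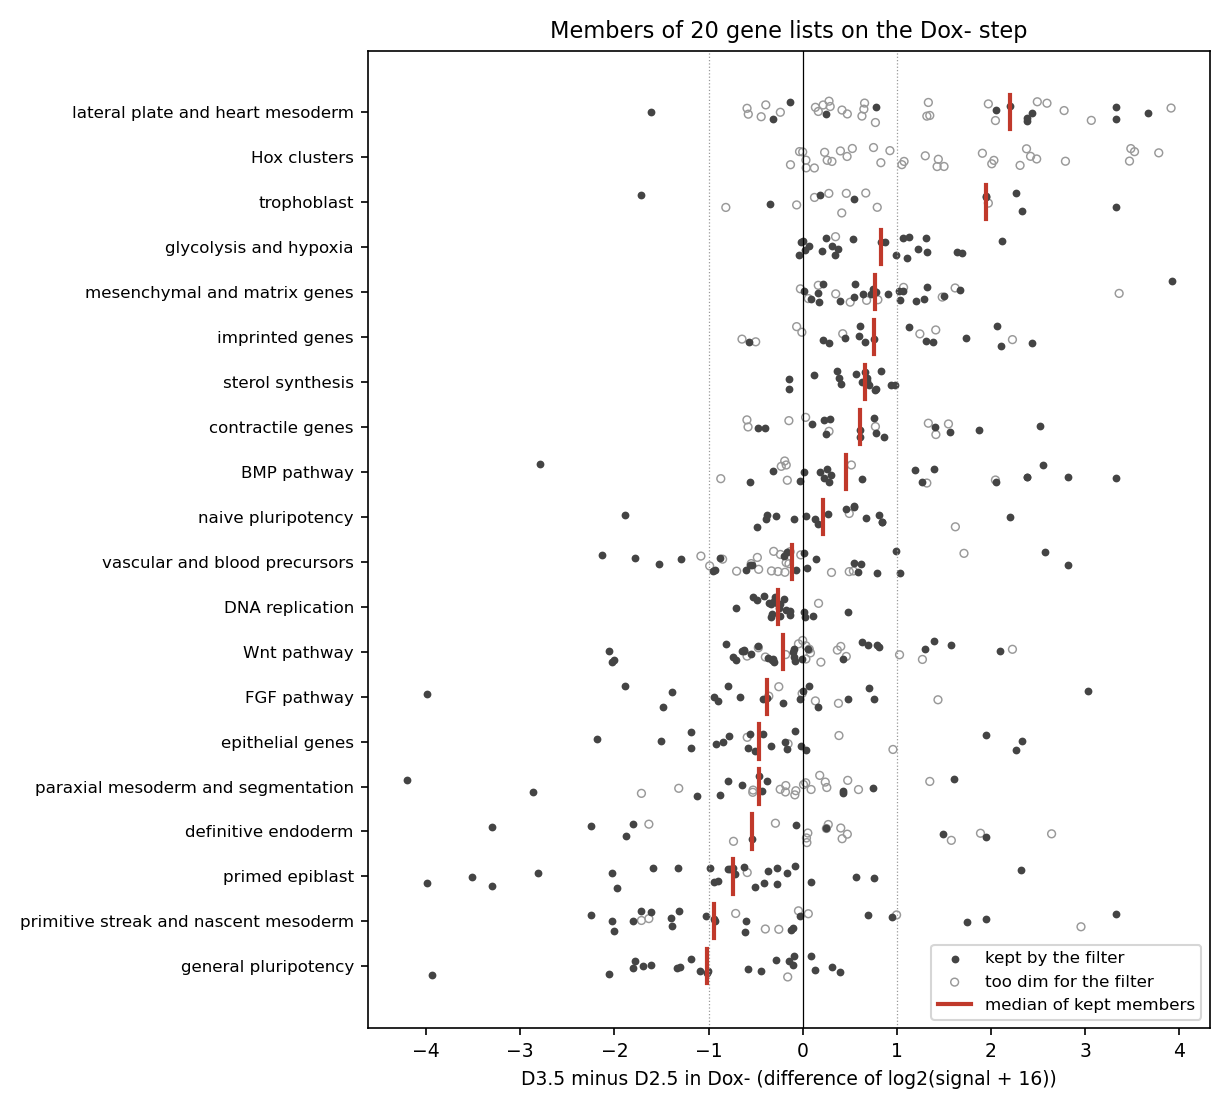
Difference D3.5 minus D2.5 in Dox- (log2(signal + 16)) for the members of 20 gene lists, with filled points for kept genes, open points for dim genes and a red bar at the median of kept members. Lateral plate genes have the highest median (2.20) and general pluripotency genes the lowest (-1.01), Hox genes are all open points, and dotted lines mark 2-fold.

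General pluripotency genes gave the lowest median of the lists, -1.01 over 22 kept members, with 12 of them 2-fold lower and none higher. Nanog, a core factor, had Dox- signals of 744.8, 685.3, 1324.0 and 306.4 (-2.06). Its D2.5 value was close to the 1629.6 of undifferentiated cells, and its D3.5 value was the lowest of all 9 arrays. Eras, a Ras-like gene of ES cells, had 1140.6, 1157.4, 521.9 and 19.1 (-3.94). L1td1, an RNA-binding protein gene of pluripotent cells, went from 1750.7 to 497.5 (-1.78), and Dppa2 from 88.3 to 13.9 (-1.80). Sox2, a partner of Oct4, showed no such step. Its Dox- signals were 2821.6, 1460.8, 284.0 and 264.6 (-0.10), so it was already low on D2.5.

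Primed epiblast genes, which ES cells switch on as they leave the naive state, were lower in 8 of 27 kept members and higher in 1, with a median of -0.74. Fgf5, the classical epiblast marker, had 25.8, 754.6, 570.3 and 21.0 (-3.99), so its peak lay inside the Dox- course. On the Dox+ arrays it was still at 708.3 on D3.5. Pim2, a serine/threonine kinase gene, went from 709.2 to 47.5 (-3.51) and Zic5, a zinc finger factor, from 536.4 to 62.7 (-2.81). Other bright probe sets disagreed in size for some of these, with -1.83 for Fgf5 and with -2.84 and -0.33 for Zic5. Podxl, a sialomucin of polarised cells, was the list's only higher member, from 343.4 to 1778.3 (2.32). Dnmt3b, the de novo DNA methyltransferase, went from 2957.5 to 1489.9 (-0.98).

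Naive pluripotency genes did not share this course. Of 18 kept members, 16 changed by less than 2-fold, and the median was 0.22. Tbx3 was the higher one and Fgf4, an ERK-activating ligand, the lower one (95.1 to 14.1, -1.88). Klf4, Socs3 and Tfcp2l1 each had steps of 0.81 to 0.84 at low signals, with Klf4 at 71.0 and 139.6. Among germline genes 1 of 12 was 2-fold lower, Sycp3, a meiotic chromosome axis gene, from 367.0 to 78.5 (-2.02). Of the 9 dim members of that list, Dppa3, a maternal and germ cell gene, went from 21.1 to 98.2 (1.62) and Prdm1, a repressor that specifies germ cells, from 33.8 to 132.8 (1.58).

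Of 20 kept BMP pathway genes, 9 were 2-fold higher and 1 lower, with a median of 0.46. Beside the ligand Bmp4, its intracellular inhibitor Smad6 went from 144.3 to 1117.2 (2.82) and Bambi, a decoy receptor induced by BMP, from 221.8 to 1377.4 (2.55). Fst, follistatin, a secreted antagonist of activin and BMP, was the lower member. It had 16, 282.8, 2098.0 and 289.3 on the Dox- arrays (-2.79). The other 10 kept members changed by less than 2-fold.

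In the Nodal and activin pathway, 2 of 18 kept genes were higher and 3 lower, with a median of -0.01. Tgfb2, a TGF-beta ligand, went from 64.7 to 762.6 (3.27), and the 2 other probe sets of the gene that passed the filter gave 2.07 and 2.81. Tgfbr3, the co-receptor betaglycan that presents this ligand, went the other way, from 474.0 to 86.1 (-2.26). Among 30 kept Wnt genes, 4 were higher and 3 lower, with a median of -0.21. Apcdd1, a membrane-bound Wnt inhibitor, went from 211.6 to 958.4 (2.10). Ror1, a receptor for Wnt5a, went from 133.4 to 20 (-2.05). Frzb, a secreted Wnt antagonist outside that list and among the 20 genes furthest down, had 0.3, 29.4, 563.5 and 95.0 (-2.38).

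Of 19 kept FGF signalling genes 4 were lower, Fgf5, Fgf4, Fgf8 and Egr1 (617.6 to 211.0, -1.48), an immediate early gene of the ERK pathway. The only kept member that was 2-fold higher was Fgfr2, an FGF receptor, from 33.1 to 385.1 (3.03), and the dim Fgfr3 went from 29.9 to 108.3 (1.44). In the retinoic acid list, 2 of 6 kept genes were higher, the binding proteins Crabp1 (73.3 to 175.4, 1.10) and Crabp2 (38.3 to 104.1, 1.15), and none was lower. The median of that list, 0.31, was 0.03 with dim genes included.

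Epithelial genes were mostly on the negative side, apart from the keratins. Of 20 kept members 16 had a negative and 4 a positive step, with a median of -0.46. Among them 4 were 2-fold lower, with Cdh1, E-cadherin, from 1208.2 to 253.9 (-2.18), Esrp1, an epithelial splicing regulator, from 395.4 to 129.0 (-1.5), and Ap1m2, an adaptor subunit of basolateral sorting, from 129.8 to 48.0 (-1.19). The 3 higher members were the simple keratins. Krt8 had 27.2, 254.4, 528.6 and 2608.7 on the Dox- arrays (2.27) and Krt18 46.5, 575.2, 585.1 and 3003.9 (2.33). With Bmp4 and Cdx2, these 3 keratins were also the 5 higher genes among 9 kept members of the trophoblast list (median 1.95), in which Eomes was lower. The defining trophoblast markers stayed at or near 0, with 3 of them summing to 22.3 on D2.5 and 17.2 on D3.5. Surface ectoderm markers summed to 52.6 and 60.9 over 4 genes, and neural markers to 87.2 and 58.2 over 4, none of these 8 above 53.7 on D3.5.

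Mesenchymal and matrix genes were on the positive side in 22 of 22 kept members, 9 of them 2-fold higher, with a median of 0.76. Snai2, Slug, a repressor of E-cadherin, had 38, 4.9, 12.4 and 413.3 (3.92), with at most 54.1 on the other 5 arrays. Col5a1, a fibrillar collagen gene, went from 59.5 to 197.9 (1.5), and S100a6, a calcium-binding protein gene, from 59.4 to 224.4 (1.67). Col1a1, the main chain of type I collagen, was seen on D3.5 Dox- alone, with 0.8 and 156.7 (3.36). The summed signal of 8 fibroblast or feeder markers went from 127.9 to 461.1, against 43.2 to 206.2 on the other 7 arrays, and 3 of the 8 reached 50 on D3.5 (Col1a1, Col1a2 and Twist2). Dcn, Lum, Postn and Thy1, which define mature fibroblasts, were between 5.3 and 25.5 there. The part of such cells in these values was not tested.

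Contractile genes were 2-fold higher in 4 of 15 kept members and lower in none (median 0.61). Acta2, smooth muscle actin, went from 144.1 to 905.5 (2.53), Csrp1, a LIM protein of smooth muscle, from 71.3 to 304.8 (1.88) and Tagln, transgelin, from 230.0 to 713.7 (1.57). Prdm6, a regulator of smooth muscle genes, went from 140.3 to 895.1 (2.54). Tpm1, a tropomyosin of muscle and other cells, was the last of the 4, from 637.1 to 1715.6 (1.41).

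Migration and guidance genes moved in both directions, with 5 of 22 kept members higher and 7 lower. Their median was -0.63, but 0.01 over all 33 with a probe set. Nrp1, a receptor for semaphorins and VEGF, had 9.1, 27.9, 163.8 and 1052.3 (2.57), and its 2 other bright probe sets gave 2.29 and 2.39. Ackr3, a scavenging chemokine receptor, had 46.8 and 619.3 (3.34), and Unc5c, a netrin receptor, 48.7 and 622.6 (3.30). Cxcl12, the chemokine that Ackr3 and Cxcr4 bind, went from 264.0 to 123.2, while Cxcr4 went from 76.6 to 243.6 (1.49). Ntn1, the netrin that Unc5c binds, went from 132.2 to 8.6 (-2.59). Both ligands were thus lower, and the 3 receptors named with them higher. Epha1, an ephrin receptor, went from 309.3 to 56.7 (-2.16).

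Imprinted genes, many of which control growth of embryo and placenta, were 2-fold higher in 7 of 15 kept members and lower in none, with a median of 0.75. Igf2, the fetal growth factor, had 13.3, 252.0, 385.8 and 2150.7 on the Dox- arrays (2.43) and at most 30.5 on the Dox+ arrays. Igf2r, which clears that growth factor, went from 335.9 to 899.5 (1.38). Cdkn1c, a cyclin-dependent kinase inhibitor, went from 131.0 to 615.9 (2.10), and Asb4, of the Peg10 cluster, from 428.0 to 1846.9 (2.07), with Sgce of the same cluster from 105.4 to 388.7 (1.74). Dlk1, a Notch-related ligand, was dim on D2.5, with 27.9, and had 189.7 on D3.5 (2.23). Both maternally and paternally expressed genes were therefore among the higher ones.

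Cell cycle genes changed little. Among 22 kept control genes, only Cdkn1c and Gadd45g, a stress-induced growth arrest gene (32.5 to 152.6, 1.80), were 2-fold higher and none was lower. None of 22 kept DNA replication genes moved 2-fold, though 18 were on the negative side, with a median of -0.26. Mcm2, a subunit of the replicative helicase, was furthest with 1159.9 and 703.7 (-0.71). Of 25 kept chromatin genes, Kdm6b, an H3K27 demethylase (319.6 to 732.6, 1.16), and Jarid2, a Polycomb partner (550.9 to 260.7, -1.03), passed 2-fold, in opposite directions.

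Glycolysis and hypoxia genes were 2-fold higher in 9 of 23 kept members and lower in none, with a median of 0.84 and 21 on the positive side. P4ha2, a collagen prolyl hydroxylase, went from 50.7 to 273.3 (2.12), Pfkp, a phosphofructokinase, from 222.7 to 755.6 (1.69), and Ndrg1, a hypoxia-induced gene, from 218.8 to 532.3 (1.22). Glycolytic enzymes did not rise as a whole. Aldoc was higher like Pfkp (1.31), while Ldha (0.03), Pgk1 (-0.04), Pgam1 (0.01) and Pkm (0.21), named after their values were seen, changed little. The median of the whole list on the Dox+ step was -0.13, with 2 members 2-fold lower. Ddit4, an mTOR inhibitor induced by hypoxia and stress, had 612.6, 1019.7, 510.1 and 1298.6 in Dox- (1.32) and went from 2310.6 to 954.9 in Dox+. None of 17 kept sterol synthesis genes reached 2-fold, with 15 on the positive side and a median of 0.66. Mvd (94.8 to 202.0, 0.98) and Fdps (770.7 to 1486.9, 0.93), enzymes of the mevalonate pathway, came closest.

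The 20 genes furthest up also held genes of other functions. Pmp22, a tetraspan membrane protein gene known from myelin, led the kept genes with 150.1 and 2683.3 (4.02), and had at most 38.8 on the 7 other arrays. Stard8 had 73.0 and 1225.0 (3.80), and Spin2c, of the spindlin family, 146.4 and 2066.0 (3.68). Rgs5, a regulator of G protein signalling that marks pericytes, went from 83.2 to 911.8 (3.23). Ahnak, a very large scaffold protein gene that also counts in the lateral plate list, went from 90.7 to 1056.3 (3.33). Morc4, Sgms1, Magi3, Prph and Ppp1r3c had steps of 3.05, 2.59, 2.57, 2.96 and 2.48, the last 2 from signals of 3.0 and 4.8. Plac1, a placental gene named after its value was seen, was the brightest of the genes found on D3.5 Dox- alone, with 20.2 and 750.1 (4.40). Among the 20 furthest down were Nefl, a neurofilament gene, from 1041.6 to 127.1 (-2.89), Deptor, an mTOR inhibitor, from 280.1 to 40.5 (-2.39), Pmaip1, the apoptosis gene Noxa, from 843.6 to 157.1 (-2.31), and Slc27a2, a fatty acid transporter gene, from 135.6 to 11.1 (-2.48). Platr10, a noncoding transcript of pluripotent cells, went from 76.6 to 0.8 (-2.46) and Dcxr, a sugar reductase gene, from 78.5 to 4.0 (-2.24).

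The same day in the Dox+ medium, which shares no array with this one, ran differently. Across the 8716 kept genes the correlation of both steps was 0.059 (Pearson) and 0.103 (Spearman), a description over genes, which are not independent. Of the 252 genes higher in Dox-, 20 (7.94%) were also 2-fold higher in Dox+, which is 17.4% of the 115 genes higher there, and 10 (3.97%) were among the 67 lower there (14.9%). Of the 191 genes lower in Dox-, 12 (6.28%) were also lower in Dox+ (17.9% of 67) and 30 (15.7%) were higher there (26.1% of 115). Over all kept genes, 1.32% were 2-fold higher and 0.769% 2-fold lower in Dox+. Each overlap, in the same or the opposite direction, was thus above the share over all kept genes. The streak list had a median of -0.94 in Dox- and 1.65 in Dox+, where 16 of 22 kept members were 2-fold higher and none lower. Eomes went from 42.2 to 911.4 in Dox+ (3.99), Mixl1 from 15.7 to 302.1 (3.33), Mesp1 from 14.6 to 253.2 (3.14) and Fst from 107.1 to 973.4 (3.01). All 4 had been higher on D2.5 Dox- than they were on D3.5 Dox+. Lateral plate genes were on the positive side in both media, with medians of 2.20 and 1.11, though Tbx20 and Isl1 reached only 8.2 and 13.1 on D3.5 Dox+. With 1 array per day and medium, the difference between both steps was not tested.

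**Figure D5:**
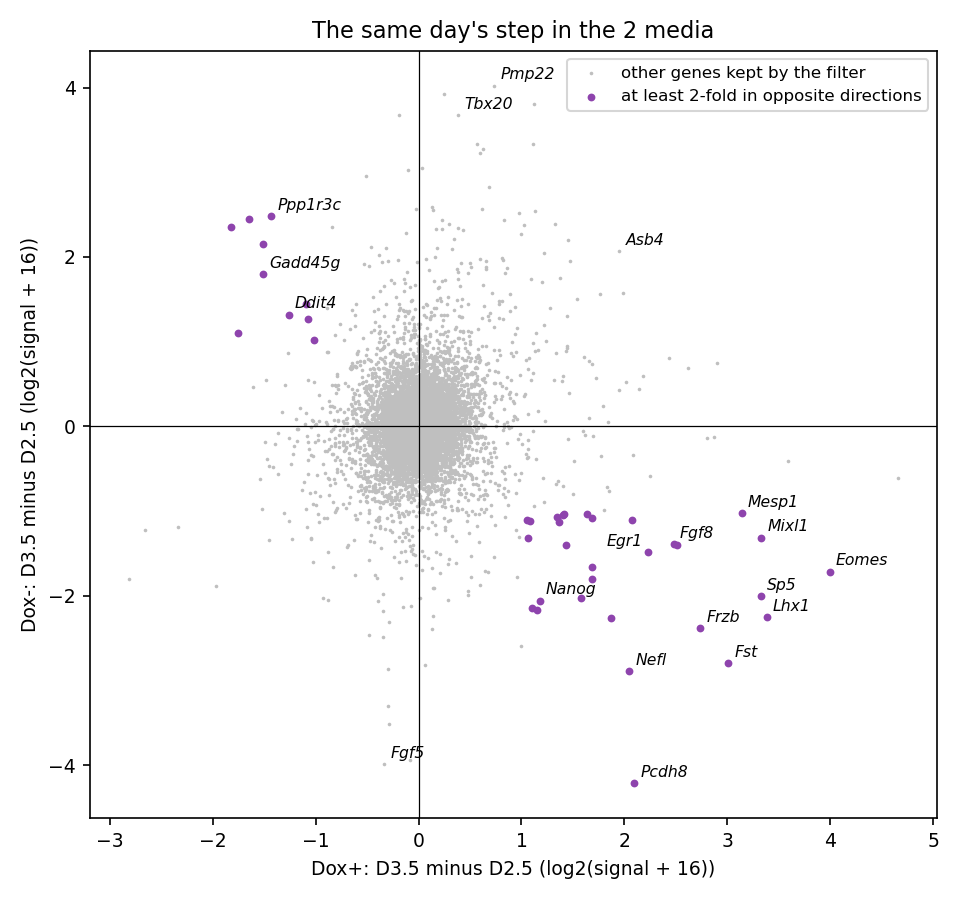
Difference D3.5 minus D2.5 (log2(signal + 16)) in Dox+ (x) against Dox- (y) for the 8716 kept genes. The 40 purple points moved at least 2-fold in opposite directions, 30 of them lower in Dox- and higher in Dox+, among them Eomes, Lhx1, Mixl1 and Pcdh8.

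For the streak and lateral plate genes the preceding Dox- step, which shares the D2.5 array, gives the other side of the D2.5 values. The streak list had a median of 2.63 from D1.5 to D2.5 and -0.94 from D2.5 to D3.5, and the lateral plate list had 1.76 and 2.20. General pluripotency genes had -0.60 and -1.01, mesenchymal genes 0.55 and 0.76, and glycolysis and hypoxia genes -0.34 and 0.84. Because a high or low D2.5 array would enter both steps with opposite sign, opposite medians are not independent of each other.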

How the data were processed

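Biotin-labelled total RNA of 9 mouse ES cell cultures was measured on Affymetrix arrays, 1 per group, with groups taken from the labels. The authors deposited 1 table of linear intensity values for 45101 probe sets; per the submitters' processing notes it was made with GCOS, with no version, background correction or detection filter given in the sources used here. Per the labels the arrays were scaled to an average of 100, and the mean without the highest and lowest 2% was 100 on each, so no further normalization was applied.

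Of the probe sets, 34945 carry 1 symbol and 932 several, which were left out; 34741 symbols were updated by gene ID through RefSeq (GRCm38.p6). For each of 18193 genes the brightest probe set over all arrays was used, without control probe sets. With 1 array a side only differences of log2(signal + 16), counts and medians are given; the number of arrays limits the precision. The members and the 34 gene lists were chosen with earlier results of these data known. Named genes are the 20 furthest each way among kept genes, up to 6 members per list with the largest difference that reach 50 on an array, a set always given (the markers, Mixl1, Eomes, Mesp1, Kdr, Pdgfra, Nanog, Sox2, Hand1, Cdx2 and every T-box, Hox and GATA gene reaching 50 on either array) and the 2 genes on each side of each threshold, 203 in all. Markers of other cells are named as fixed sets, and any other gene was named after its value was seen. Scripts used Python 3.11.15 with pandas 2.3.3 and numpy 2.4.6 and were tested on simulated data. Alternatives were pseudocounts of 1 and 64, no filter, a minimum of 100, the mean over probe sets, quantile normalization, median centring and, added later, a minimum on either array.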

Additional observations from a re-analysis of the deposited data

Results flagged for a closer look

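With 1 array per day and medium, the genes below are given because they moved at least 2-fold one way from D2.5 to D3.5 in Dox- and at least 2-fold the other way in Dox+, and gene lists because their medians reached 0.5 on opposite sides of 0; none of these differences was tested. In all, 40 kept genes did so, 30 of them lower and 10 higher in Dox-, and only those named by rule are listed here. Values are given as the Dox- step and then the Dox+ step on the log2(signal + 16) scale.

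Among transcription factors, Eomes had -1.71 and 3.99, Lhx1 -2.25 and 3.38, Mixl1 -1.31 and 3.33, Sp5 -2.0 and 3.33, Mesp1 -1.03 and 3.14, Egr1 -1.48 and 2.23, Meis2 -1.10 and 2.07, and Nanog -2.06 and 1.18. Among ligands, receptors and antagonists, Fst had -2.79 and 3.01, Frzb -2.38 and 2.73, Fgf8 -1.38 and 2.48, Tgfbr3 -2.26 and 1.87, Wnt8a -2.03 and 1.58, Epha1 -2.16 and 1.16, and Dll3 -1.12 and 1.08. Pcdh8 had -4.21 and 2.09 and Nefl -2.89 and 2.05. In the other direction, Ppp1r3c had 2.48 and -1.43, Gadd45g 1.80 and -1.51, and Ddit4 1.32 and -1.26. Of list medians, that of streak and nascent mesoderm was -0.94 and 1.65, of intermediate mesoderm -0.68 and 0.53, of definitive endoderm -0.54 and 0.60, and of migration and guidance genes -0.63 and 0.55. With dim members included, these medians were, in the same order, -0.61 and 1.44, 0 and -0.02, 0.05 and 0.09, and 0.01 and 0.36. Only the streak list then kept opposite medians of that size.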

How the results depend on the processing

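No paired analysis was possible because each group holds 1 array and no replicate numbers are shared; for the same reason no replicate could be left out. The count of genes 2-fold higher, 252, was 150 with a pseudocount of 64, 163 with the mean over probe sets and 431 without a filter, where dim genes enter. The count of lower genes, 191, was 334 with a pseudocount of 1 and 84 with 64. With median centring 216 genes were higher and 234 lower, so the excess of higher genes was not kept. Without a filter the median of the definitive endoderm list turned from -0.54 to 0.05, that of migration and guidance genes from -0.63 to 0.01 and that of the T-box family from 0.92 to -0.02, and the retinoic acid median was 0.03. At a minimum of 100 the definitive endoderm median was -2.06 and the T-box median -0.37. Median centring moved DNA replication genes to -0.35. The germline median, 0.02, was -0.36 with a pseudocount of 1 and 0.71 with a minimum of 50 on either of the 2 arrays, an alternative chosen after seeing the data. Of 141 named genes at 2-fold, 112 to 141 stayed 2-fold in their direction under the 5 settings that keep the same genes, and 0 reversed. Many of these genes were named for their large steps, which raises that share by itself, so it does not describe all called genes. Signals near 0 have no measured error here, so steps from such values are the least certain.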

Other observations

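Beyond the genes named by rule, the genes that reached a signal of 50 on D3.5 Dox- and on no other array held several that were picked after their values were seen. Tdo2, which encodes tryptophan dioxygenase, had 3.1 on D2.5 and 181.1 on D3.5 (a step of 3.37 on the log2(signal + 16) scale) and at most 4.2 on the other arrays. Capn6, a calpain-family gene of embryonic muscle and placenta, had 25.2 and 299.2 (2.94). Adgra2, an adhesion receptor of vessel growth, had 19.3 and 229.1 (2.80), and Rbms3, an RNA-binding protein gene, 19.1 and 221.4 (2.76). Tnnc1, the troponin C of heart and slow muscle, had 14.7 and 169.5 (2.60) and at most 16.4 elsewhere. Other heart muscle genes differed on D3.5 Dox-, with Actc1 at 172.7 and Myl7 at 61.7, but Tnnt2 at 34.2, Myh6 at 3.7 and Myl2 at 1.3. These are single-array values without a test.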
